A study of Sus scrofa with 15 samples.

Results

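The comparison described here sets testis RNA from male piglets fed sow milk (Sow) against testis RNA from piglets fed any of 4 formula diets. All 15 libraries of the study entered it, 3 of Sow and 12 of formula. The formula groups, with 3 libraries each, were cow's milk formula (Milk), soy formula made with soy protein isolate (Soy), cow's milk formula with 17-b estradiol (M + E2) and cow's milk formula with genistein, the main soy isoflavone (M + G). The members were all genes that passed a filter on low counts, 15328 of 30476 in the table, and each formula group had the same weight in the formula mean.

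The piglets of every group suckled the sow for the first 2 days after birth, were then given their diet from small bowls in individual housing, and were killed on postnatal day 21. Sow piglets therefore drank commercially obtained sow milk from a bowl and were not nursed. The estradiol was meant to bring serum estradiol to 15 to 30 pmol/L, and genistein was added at 84 mg/L, which the study's methods give as a concentration in the diet. The estradiol range is a target and not a measured level. The study reported measured serum estradiol in M + E2 far above that of every other group and also far above this target. According to the methods, piglets were drawn from many litters born on the same day, to Dutch Landrace Duroc sows on a soy-free diet. The comparison asks how the testis transcriptome of Sow differs from the mean of the formula diets. Because M + E2 and M + G hold an added compound, that mean does not stand for formula feeding alone. Because all formula groups share the Sow libraries, whatever is peculiar to those libraries moves every formula value in the same direction.

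At this age the piglet testis holds immature seminiferous cords, in which Sertoli cells surround the early germ cells, with contractile peritubular myoid cells around the cords. Steroid-making Leydig cells, which are unusually abundant in the pig, fill the space between the cords together with vessels and macrophages. Steroid synthesis begins in the mitochondrion, where the side chain of cholesterol is cut, so that Leydig cells are rich in mitochondria. Levels below are in CPM, read counts relative to the library's total scaled by the TMM method, and fold changes are log2 values of formula minus Sow from edgeR's quasi-likelihood fit, given ± SE.

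Testis markers were present in every library. The Leydig cell hormone INSL3 measured 5303, 6148 and 6555 CPM in Sow unnumbered, Sow 2 and Sow 3, and from 2966 to 6089 CPM (median 4591) over the formula libraries. The Sertoli cell hormone AMH measured 696, 287 and 410.2 CPM in the Sow libraries in the same order and 349 to 1274 CPM (median 622) in formula. All Sow values below follow this order, in which "unnumbered" marks the Sow library whose column carries no replicate number.

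Among the Sow libraries, Sow 2 stood apart, and the study left it out of its own analysis for low correlation. All 4 pairs of libraries with r below 0.9 included it. Libraries held 6097552 to 9488579 reads. Across genes, the log2 differences of Sow 2 from the formula mean regressed on those of the other Sow libraries with a slope of 1.47. Its TMM factor was the lowest of the series at 0.762, against 0.938 and 0.957 in the other Sow libraries and 0.918 to 1.14 in formula. Calls below are those of the quasi-likelihood fit unless another test is named. The 11 genes that this fit called also without Sow 2 are all named below. Every other call it made between Sow and the formula mean was lost when Sow 2 alone was left out. DESeq2's Wald test and edgeR's exact test called more genes without Sow 2, as given below.

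Taken as a whole, Sow and formula libraries differed on average, but not every library lay nearest to its own side. Milk 1 and Soy unnumbered had a higher mean r with the Sow libraries (0.967 and 0.973) than with the other formula libraries (0.958 and 0.959). On log2 CPM of all tested genes, the pseudo-F of Sow against formula was 4.97, and 27.7% of the total sum of squares lay between Sow and formula. In a one-sided exact permutation test over every way of choosing 3 of 15 libraries this gave p = 0.00220, the smallest value the test can give. Without Sow 2 the pseudo-F was 2.41 and the share 16.7%, with an exact permutation p = 0.0110 over 91 choices, again the smallest possible.

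Counted gene by gene, the result depended on Sow 2. A gene was called where the groups differed by 2-fold or more and the p-value, adjusted by the Benjamini-Hochberg method, did not exceed 0.05. With all 3 Sow libraries 1553 genes were called, 690 higher in formula (4.5% of those tested) and 863 lower (5.63%). These shares are the background for every count of called list members below. Without Sow 2 the number was 11 of 15634 (0.0704%), 3 higher and 8 lower, and all of them were among the genes called with it. In that fit 4395 genes had an unadjusted p below 0.05, 11.7% of the tested genes on the higher side and 16.4% on the lower side. The small number was particular to some tests, as without Sow 2 DESeq2's Wald test called 404 genes, the exact test of edgeR 312 and limma voom 14. Scaling by total reads alone moved the split of the calls to 1494 higher and 377 lower, and shifted the median log2 fold change of all genes from 0.05 to 0.27, so that directions below are relative to the bulk of genes.

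Without Sow 2 the changes of the called genes were smaller. Of the 1552 called genes that could be tested without Sow 2, 1551 kept their direction, 717 were still at least 2-fold apart, and the median size of the change went from 1.22 to 0.98 on the log2 scale. The remaining Sow libraries are shared between these fits, so this sameness of direction is a description and no independent check. In 1353 of the 1553 calls Sow 2 was the Sow library farthest from the formula mean. For genes called lower in formula, the median log2 difference of Sow from the formula mean was 1.01 in Sow unnumbered, 1.74 in Sow 2 and 0.91 in Sow 3.

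**Figure D1:**
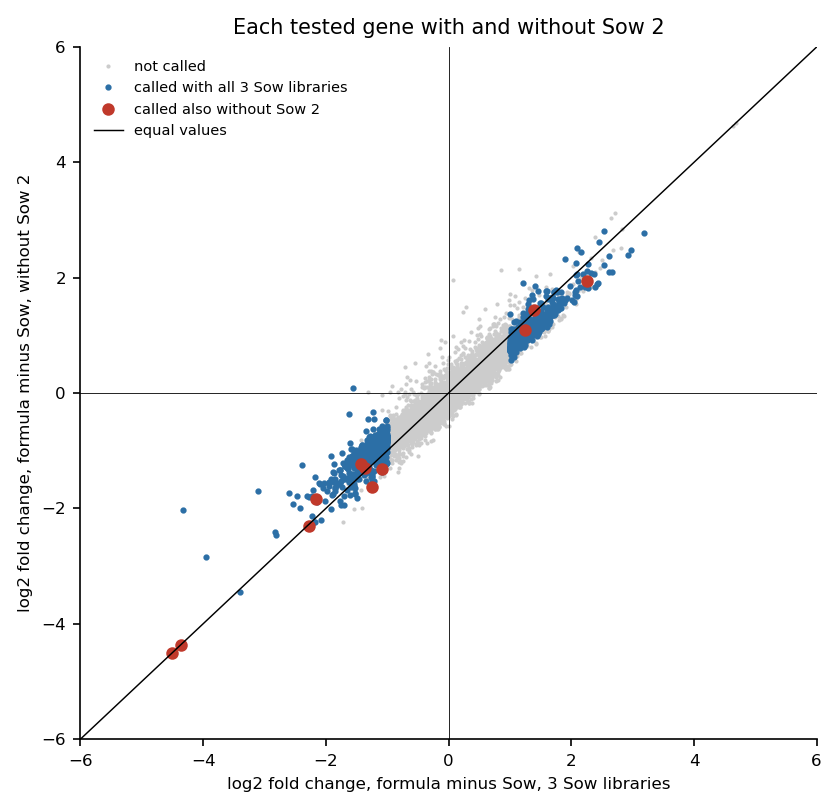
Log2 fold change (formula minus Sow) of each tested gene with all 3 Sow libraries (x axis) and without Sow 2 (y axis); blue points were called only with Sow 2 and red points in both fits. The blue clouds on either side lie mostly nearer to 0 than the line of equal values, and the 11 red points include a pair beyond −4 that lies on the line.

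Libraries were also compared without a model. The 3 Sow libraries all lay below the 12 formula libraries in 969 genes (6.32%) and all above them in 1184 (7.72%). For the other 2 Sow libraries the numbers were 966 (6.18%) and 1401 (8.96%), which cannot be read against the first pair, because fewer Sow libraries clear the formula libraries more easily. Of the genes called with all 3 Sow libraries, 787 did not overlap between Sow and formula.

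The called gene with the largest fold change was PHYHIPL, a gene named for its likeness to a partner of phytanoyl-CoA hydroxylase (chromosome 14, 62525915 to 62630383, build Sscrofa11.1). It measured 55.4, 44.1 and 25.2 CPM in Sow and 0.639 to 3.47 CPM (median 1.58) in formula, so that the lowest Sow library was several times above the highest formula library. The log2 fold change was −4.50 ± 0.30 (adjusted p = 3.75e-06, 22.7-fold lower in formula) and −4.50 ± 0.35 without Sow 2 (adjusted p = 5.34e-05). It was lower by similar amounts against each diet, at −4.32 for Milk, −4.28 for M + G, −4.83 for M + E2 and −4.59 for Soy. A gene that the table lists by the identifier ENSSSCG00000048477, with no symbol, ranked its Sow libraries in the same order. It measured 24.6, 18.98 and 10.3 CPM in Sow against 0.314 to 1.53 CPM (median 0.873) in formula, a log2 fold change of −4.36 ± 0.26 (adjusted p = 1.15e-06) and −4.37 ± 0.30 without Sow 2 (adjusted p = 2.07e-05). Whether the genes lie beside each other was not analysed here.

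TFRC, the transferrin receptor through which cells take up iron, was also called in both fits (chromosome 13, 133976765 to 133997554). Its level was 717, 1213 and 611 CPM in Sow and 94.8 to 372 CPM (median 179.6) in formula, with no overlap and with Sow 2 the highest library. The log2 fold change was −2.16 ± 0.26 (adjusted p = 0.00209) and −1.84 ± 0.28 without Sow 2 (adjusted p = 0.0411). Cells make more transferrin receptor when iron is short, because iron-responsive elements in its mRNA are bound by the iron regulatory proteins. Of the 12 iron genes tested, TFRC was the one called, and the median of the list was −0.39 (−0.34 without Sow 2). FBXL5, the iron sensor that marks the regulatory protein IREB2 for degradation, had −0.80 ± 0.18 (adjusted p = 0.00777), and IREB2 itself −0.51 ± 0.13 (adjusted p = 0.00925), both below 2-fold. The iron store component FTL measured 7807, 13359.7 and 6214 CPM in Sow and 2947 to 10616 CPM (median 5101) in formula (adjusted p = 0.109).

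TXNIP, which binds thioredoxin, rises with glucose and limits glucose uptake, went against the general pattern of Sow 2. It measured 864, 536 and 786 CPM in Sow, with Sow 2 nearest to formula, and 263 to 393 CPM (median 354) in formula. The difference was −1.09 ± 0.16 (adjusted p = 0.00376) with all 3 Sow libraries and larger without Sow 2, at −1.31 ± 0.17 (adjusted p = 0.00941). Without Sow unnumbered it was −0.98, adjusted p = 0.0109, just under 2-fold. Its relative ARRDC3, an arrestin-domain protein, was also called lower, with 153, 131 and 233 CPM in Sow and 33.4 to 137 CPM (median 70.2) in formula (−1.25 ± 0.27, adjusted p = 0.00685). ARRDC3 lost its call without Sow 3 (−0.97, adjusted p = 0.0345). Of the 6 genes listed for glucose sensing these were the called members, and the carbohydrate-response factors MLXIP (0.78 ± 0.27) and MLXIPL (0.63 ± 0.23) had values of the other sign, both below 2-fold.

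TXNIP also belongs to a list of genes of insulin signalling and of FOXO factors, which act when insulin is low. Of 20 tested members, 4 were called lower in formula (20.00%, beside 5.63% of all tested genes) and none higher. The list as a whole had no common direction, with 11 members above and 9 below 0 and a median of 0.02 (−0.19 without Sow 2). Besides TXNIP the called members were KLHL24, an adaptor for protein degradation, CCNG2, a cyclin of resting cells, and SESN1, a sestrin. KLHL24 measured 95.8, 138 and 98.8 CPM in Sow and 39.8 to 70.9 CPM (median 51.3) in formula (−1.09 ± 0.16, adjusted p = 0.00376), with no overlap. CCNG2 measured 37.5, 71.7 and 50.1 CPM and 15.1 to 29.6 CPM (median 18.7) (−1.33 ± 0.21, adjusted p = 0.00420). SESN1 had −1.02 ± 0.18 (adjusted p = 0.00442) and lost its call without 5 of the other 14 libraries, each a formula library whose absence left the change just under 2-fold. The pyruvate dehydrogenase kinase PDK4 measured 143, 74.3 and 141 CPM in Sow and 51.8 to 112 CPM (median 62.5) in formula, a log2 value of −0.84 ± 0.21 that grew to −1.13 ± 0.21 without Sow 2 (adjusted p = 0.0622). The insulin receptor INSR (0.48 ± 0.27) and the substrates IRS1 (0.59 ± 0.32) and IRS2 (0.05 ± 0.35) were not called. GRB14, an adaptor that inhibits the insulin receptor and is not in that list, was called lower with all 3 Sow libraries, at 365, 629 and 350.1 CPM in Sow and 94.8 to 246 CPM (median 155) in formula (−1.50 ± 0.22, adjusted p = 0.00376). Without Sow 2 GRB14 had −1.22 ± 0.24 (adjusted p = 0.0622).

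**Figure D2:**
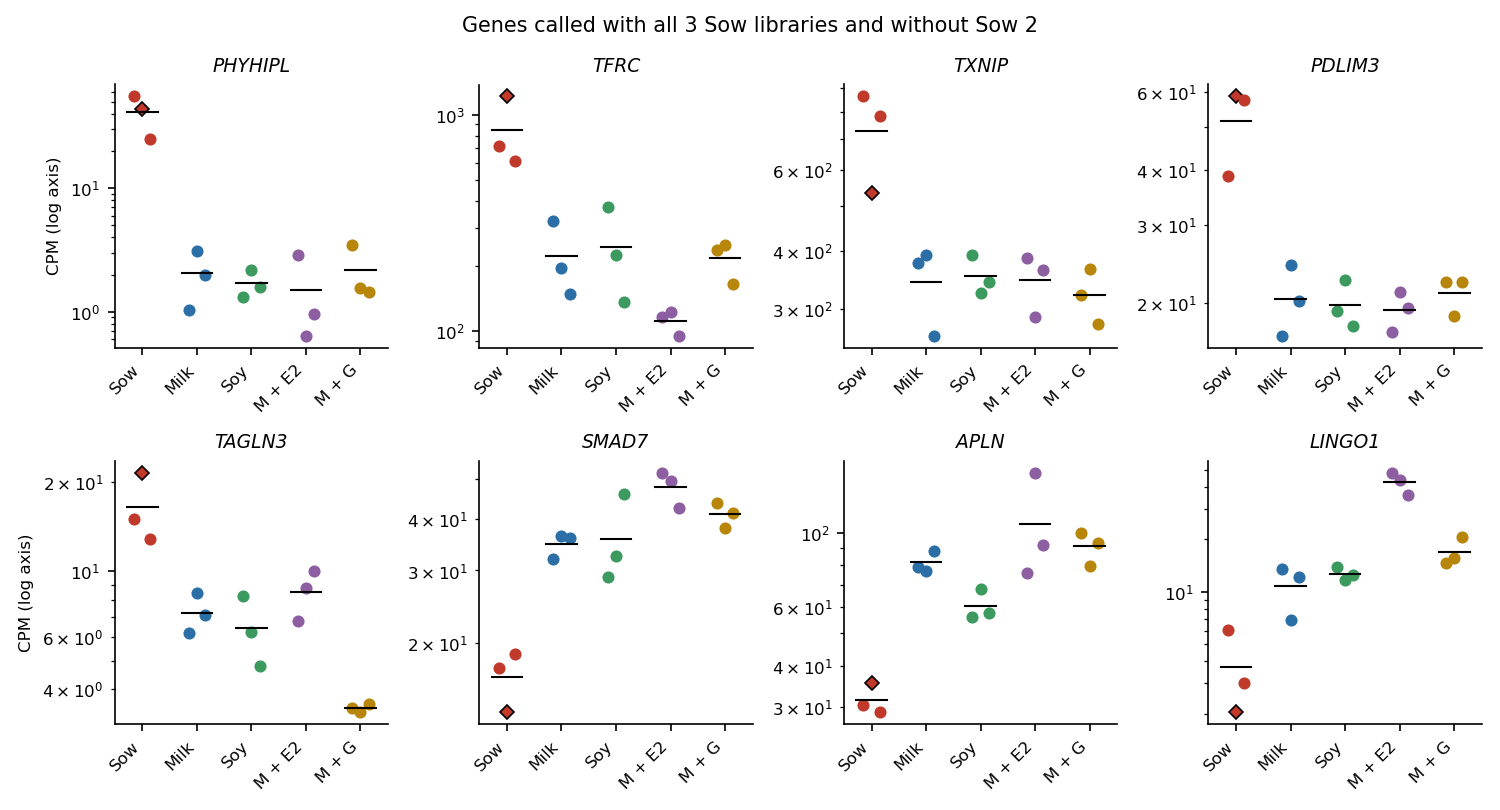
CPM (log axis) of 8 genes called both with all 3 Sow libraries and without Sow 2, in each library of the 5 groups; lines are group means and the outlined diamond is Sow 2. In each panel the Sow libraries lie beyond all 12 formula libraries, 5 genes with Sow above and 3 with Sow below.

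Further genes lower in formula in both fits were PDLIM3 and TAGLN3. PDLIM3, an actinin-binding LIM protein of muscle, measured 38.7, 58.6 and 57.5 CPM in Sow and 16.9 to 24.3 CPM (median 19.8) in formula (−1.36 ± 0.14, adjusted p = 0.000351; −1.29 ± 0.15, adjusted p = 0.00375, without Sow 2). Its formula groups lay within a narrow band, with group means from 19.3 ± 2.02 CPM in M + E2 to 21.1 ± 2.06 in M + G (SD, n = 3). TAGLN3, a transgelin best known from neurons, measured 15.1, 21.5 and 12.8 CPM and 3.35 to 10.01 CPM (median 6.52) (−1.43 ± 0.18, adjusted p = 0.00294; −1.23 ± 0.20, adjusted p = 0.0430, without Sow 2). Its lowest group was M + G, with 3.46 ± 0.107 CPM. CYP3A29, a pig drug-metabolizing cytochrome P450, was called in both fits although Sow 2 lay among the formula libraries, with 6.59, 2.77 and 8.39 CPM in Sow and 1.71 to 5.17 CPM (median 2.16) in formula. It had −1.26 ± 0.29 (adjusted p = 0.00769) and −1.62 ± 0.27 without Sow 2 (adjusted p = 0.0469), and lost its call without Sow 3 (−0.92, adjusted p = 0.0508). It was 1 of 4 of 20 genes of xenobiotic metabolism called lower (20%, beside 5.63% of all tested genes), none being called higher (list median −0.41). The others were the glutathione transferase MGST2 (−1.58 ± 0.29, adjusted p = 0.00496), the alcohol dehydrogenase ADH5 (−1.16 ± 0.22, adjusted p = 0.00529) and GSTO1 (−1.10 ± 0.29, adjusted p = 0.0114).

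Only 5 genes with a symbol met the strictest naming rule on the lower side (called in both fits with no overlap), and the next 9 by p were called with all 3 Sow libraries alone. They were COCH, which encodes cochlin, S100A12, a calgranulin of neutrophils, LRRC39, known from the sarcomere, GTPBP8 and GPN3, which encode GTP-binding proteins, PLBD1, a phospholipase B-like protein of granulocytes, RRM2B, a subunit of ribonucleotide reductase, FASTKD2, which acts in mitochondrial RNA handling, and GRB14. S100A12 measured 6.19, 28.3 and 5.87 CPM in Sow and 0.125 to 2.98 CPM (median 0.773) in formula, so that Sow 2 was far above the other Sow libraries (−3.96 ± 0.53, adjusted p = 0.00342). Without Sow 2 it was −2.85 ± 0.54 (adjusted p = 0.0622). LRRC39 measured 209.8, 349 and 163 CPM and 35.6 to 110.0 CPM (median 60.3) (−1.94 ± 0.26, adjusted p = 0.00345). PLBD1 measured 127, 172 and 136 CPM and 43.4 to 94.6 CPM (median 64.1) (−1.22 ± 0.17, adjusted p = 0.00349). For all 9, log2 values lay between −3.96 and −1.10 with all 3 Sow libraries, and between −2.85 and −1.02 without Sow 2, where their adjusted p ran from 0.0552 to 0.0622.

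Higher in formula in both fits were SMAD7, APLN and LINGO1. SMAD7, an inhibitor that TGF-β induces against its own signalling, measured 17.4, 13.6 and 18.8 CPM in Sow and 28.9 to 51.7 CPM (median 39.7) in formula (1.25 ± 0.16, adjusted p = 0.00294). Without Sow 2 it was 1.09 ± 0.18 (adjusted p = 0.0465). APLN, the apelin peptide that acts on vessels, measured 30.4, 35.5 and 28.99 CPM and 55.9 to 151 CPM (median 79.5) (1.40 ± 0.19, adjusted p = 0.00342; 1.45 ± 0.22, adjusted p = 0.0430, without Sow 2). Soy had the lowest formula mean of APLN at 60.5 ± 6.54 CPM, still above all Sow libraries. LINGO1, a co-receptor known from myelin and axon growth, measured 6.05, 2.04 and 3.00 CPM and 6.94 to 47.98 CPM (median 14.2) (2.25 ± 0.29, adjusted p = 0.00304; 1.93 ± 0.31, adjusted p = 0.0430, without Sow 2). Here M + E2 stood above the other formula groups, with 42.5 ± 5.99 CPM against 10.9 ± 3.45 in Milk, 12.7 ± 1.05 in Soy and 16.97 ± 3.17 in M + G. The test of a difference among the formula groups gave it an adjusted p = 0.0552, above the threshold.

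The next genes on the higher side by p were called with all 3 Sow libraries alone, and in all of them the Sow libraries lay below the 12 formula libraries. Several encode receptors: GRIK5 a kainate receptor subunit, GPR4 a proton-sensing receptor of endothelium and GPRC5C an orphan receptor. GRIK5 measured 12.6, 6.72 and 9.70 CPM in Sow and 16.3 to 41.9 CPM (median 25.4) in formula (1.43 ± 0.19, adjusted p = 0.00349). GPR4 measured 4.57, 2.34 and 3.23 CPM and 6.97 to 12.8 CPM (median 8.82) (1.44 ± 0.21, adjusted p = 0.00376). NEURL1B, a ubiquitin ligase of the Notch pathway, measured 34.7, 28.2 and 45.3 CPM and 65.3 to 149.8 CPM (median 117) (1.63 ± 0.26, adjusted p = 0.00419). The remaining ones were CA11, a carbonic anhydrase relative without catalytic activity, CDC42EP1, an effector of the GTPase CDC42, the membrane protein MARVELD1, the matrix protein EMID1, the phosphatase PTP4A3 and the tetraspanin TSPAN15. Log2 values of these genes ran from 1.05 in CA11 to 1.63 in NEURL1B. Without Sow 2 they ran from 0.86 in MARVELD1 to 1.45 in NEURL1B, with adjusted p from 0.0552 to 0.0688. CA11 was just under 2-fold without Milk 2 (1.000).

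**Figure D3:**
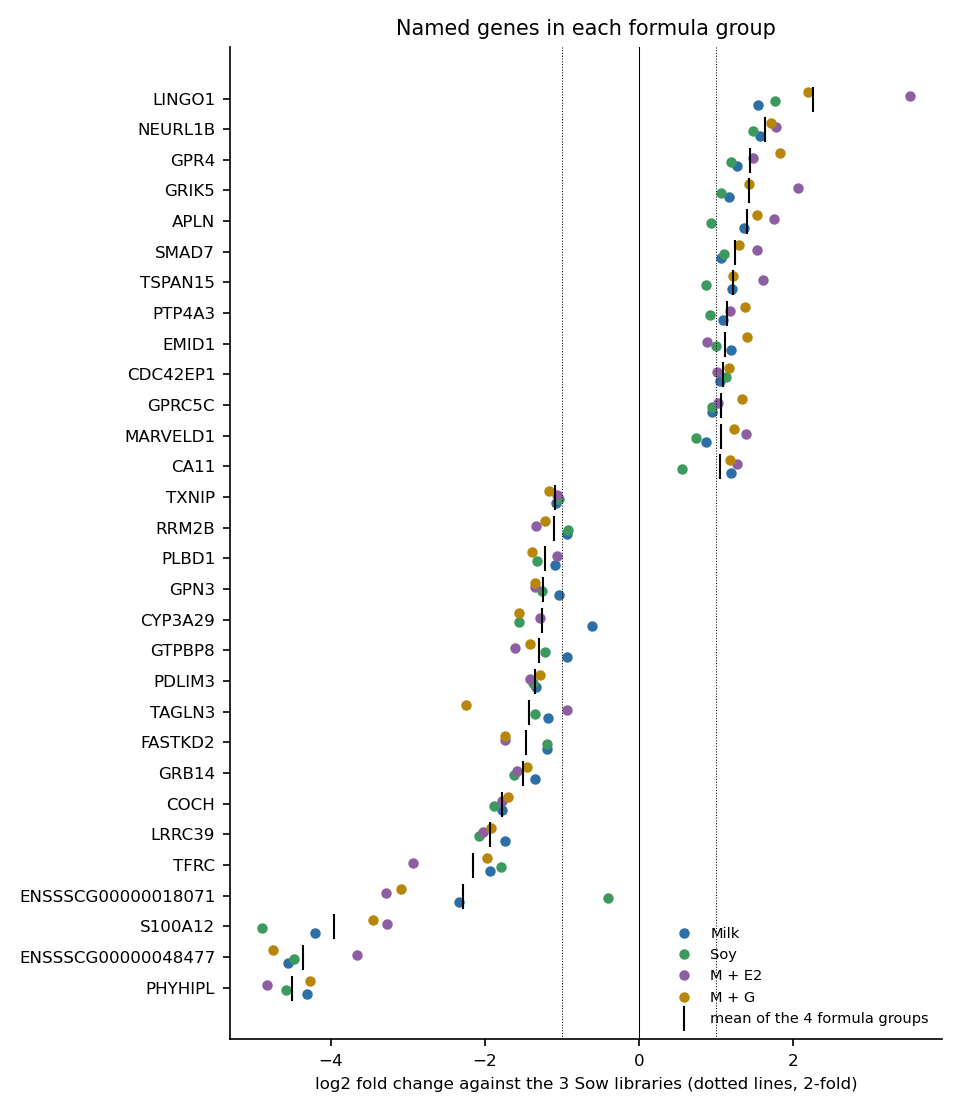
Log2 fold change of each formula group against the 3 Sow libraries for the named genes, with the mean of the 4 groups as a bar and 2-fold as dotted lines. For most genes the 4 points lie close together; LINGO1 is farthest right in M + E2 and ENSSSCG00000018071 lies near 0 in Soy alone.

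Few genes were called between the formula groups by the quasi-likelihood test. A test that the 4 formula groups have equal means called 2 genes (0.013%), and 1 of these, ENSSSCG00000018071, was among the 1553 calls against Sow. It measured 13.5, 15.9 and 17.97 CPM in Sow, 11.9 ± 4.35 in Soy, and 3.12 ± 1.24, 1.59 ± 0.284 and 1.86 ± 0.637 CPM in Milk, M + E2 and M + G (SD, n = 3). The difference among formula groups had an adjusted p = 0.0103. Its fold change against Sow was −2.28 ± 0.23 (adjusted p = 0.000351), but Soy alone differed from Sow by −0.41 on the log2 scale, so its formula mean does not describe Soy. At an unadjusted p below 0.05 the formula groups differed in 127 of the Sow calls (8.18%), beside 8.79% of all tested genes. DESeq2's likelihood ratio test of the same question called 225 genes. With 3 libraries per group, a small number of calls does not show that the diets were alike. The study, by edgeR's exact test, reported many more than 2 genes between M + E2 and Milk.

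Set against the same Sow libraries one at a time, the diets gave very different numbers of calls. Milk had 9 (0.0587%), Soy 4 (0.0261%), M + E2 2767 (18.1%) and M + G 1585 (10.3%). In Milk and Soy many of the named genes lay just above the threshold. GRIK5, GPR4 and TFRC, each beyond 2-fold in both, all had a quasi-likelihood adjusted p = 0.0722 in Milk and 0.0651 in Soy. The counts therefore do not measure how far a diet lay from Sow. All 4 comparisons share the Sow libraries, and the genes were called on the mean of the same diets, so that their common sign in the diets is no result. The sizes followed the order of the calls only in part, since the median log2 value of genes called lower was −0.95 in Milk, −1.15 in Soy, −1.36 in M + G and −1.48 in M + E2. Among the calls, 297 higher and 265 lower genes passed 2-fold in every diet, and 150 and 69 of them did so also without Sow 2. Leaving a diet out of the formula mean gave between 1306 calls (without M + E2) and 1931 (without Milk).

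The broadest difference by gene list was a lower level of the machinery of respiration and translation in formula. Most respiratory chain subunits are encoded in the nucleus and imported, and of 63 nuclear genes of complexes I to V, 30 were called lower in formula and none higher. Their median log2 value was −0.97, beside 0.05 over all tested genes, and 61 were below 0. Without Sow 2 the median was −0.72, none was called, and 47 had an unadjusted p below 0.05 on the lower side.

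The medians of all 5 complexes were below 0. Complex I, NADH dehydrogenase, had 15 of 33 members called lower and a median of −0.97 (−0.73 without Sow 2). Complex II had 1 of 4 (−0.45), complex III 4 of 7 (−1.12), complex IV 4 of 8 (−1.03) and the ATP synthase, complex V, 6 of 11 (−1.16). By diet the median of complex I was −0.62 in Milk, −0.85 in Soy, −0.97 in M + G and −1.35 in M + E2. UQCRC2, a core protein of complex III, measured 343, 572 and 289 CPM in Sow and 89.1 to 237 CPM (median 121) in formula without overlap (−1.54 ± 0.25, adjusted p = 0.00420). Further called members were NDUFA9 (−1.05 ± 0.18; just under 2-fold without Soy 3 or M + E2 1, −0.98, adjusted p = 0.0115) and NDUFC2 (−1.24 ± 0.23) of complex I, UQCR11 (−1.12 ± 0.21) and UQCR10 (−1.34 ± 0.29) of complex III, COX5B (−1.28 ± 0.27) and COX7A2 (−1.10 ± 0.23) of complex IV, and ATP5PF (−1.26 ± 0.22) and ATP5MC3 (−1.28 ± 0.23) of complex V. The complex IV subunit COX7B measured 243, 506 and 225 CPM and 57.7 to 202 CPM (median 87.2) (−1.66 ± 0.32, adjusted p = 0.00532), and the ATP synthase subunit ATP5MG 225, 398 and 216 CPM and 65.8 to 202 CPM (median 94.8) (−1.37 ± 0.23, adjusted p = 0.00431). In the complex I subunit NDUFA1 Sow unnumbered (39.3 CPM) touched the range of formula (11.4 to 39.97), while Sow 2 was at 97.1 (−1.65 ± 0.29, adjusted p = 0.00442). SDHC, the called member of complex II, was under 2-fold without Milk 3 (−0.99, adjusted p = 0.00892), Soy 3 (−0.97, adjusted p = 0.00842) or M + E2 1 (−0.97, adjusted p = 0.0188).

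The 13 protein genes of the mitochondrial genome itself were not called in either direction. All had negative values, with a median of −0.46, and ATP8 had the smallest p (−0.84 ± 0.24, adjusted p = 0.0154). By diet the median was −0.01 in Soy, −0.39 in Milk, −0.46 in M + G and −0.98 in M + E2, so the value for the formula mean does not describe Soy. Mitochondrial genes took 7.13% to 7.32% of the reads in Sow, inside the range of formula from 4.36% (M + E2 3) to 9.65% (Soy 2).

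Many genes of the cytosolic ribosome were lower in formula as well. Of 57 ribosomal protein genes tested, all had negative values, 30 were called lower and the median was −1.04 (−0.80 without Sow 2, with none called). RPS15A measured 855, 1524 and 762 CPM in Sow and 179.8 to 653 CPM (median 251) in formula (−1.75 ± 0.33, adjusted p = 0.00496), and RPS29 856, 1406 and 791 CPM and 236 to 733 CPM (median 354) (−1.38 ± 0.28, adjusted p = 0.00563). Both were separated without overlap, and RPS20 had −1.25 ± 0.26 (adjusted p = 0.00586). Many pseudogenes resemble ribosomal protein genes, and how short reads were divided among them is not known, so single values are uncertain. These genes took 7.58%, 9.89% and 6.82% of the reads in the Sow libraries. In formula the share was spread widely: Milk 1 (6.28%), Milk 2 (7.01%) and Soy unnumbered (6.70%) were near Sow 3, and the other 9 libraries lay between 3.06% and 5.43%. Sow 3 thus lay within the formula range, and the part of this share in the calls was not tested.

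The proteasome followed at a smaller size, with 6 of 29 members called lower and a median of −0.56 (−0.41 without Sow 2). PSMA2, a subunit of its core ring, measured 316, 680.1 and 310.3 CPM in Sow and 74.6 to 273 CPM (median 111) in formula (−1.70 ± 0.31, adjusted p = 0.00469), and PSMC6 (−1.23 ± 0.24) and PSMA6 (−1.24 ± 0.25) were called with it. Among chaperones the calls went both ways, with 5.56% called higher and 5.56% lower, beside 4.5% and 5.63% of all tested genes. HSPE1, which folds proteins inside the mitochondrion, was called lower (−1.43 ± 0.33, adjusted p = 0.00784), and BAG3, a co-chaperone induced by stress, was called higher (1.06 ± 0.20, adjusted p = 0.00496), the latter under 2-fold without Soy 3 (0.98, adjusted p = 0.00415). The median of the 18 members was 0.03.

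Scaling by total reads left these lists on the same side of 0, with 21 ribosome, 8 complex I and 2 proteasome genes called lower and medians of −0.79, −0.72 and −0.32. Among all lists it turned the sign of the medians of adipocytes, cell cycle, cholesterol synthesis, germ cells, glucocorticoid response and lymphocytes, all of them near 0.

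**Figure D4:**
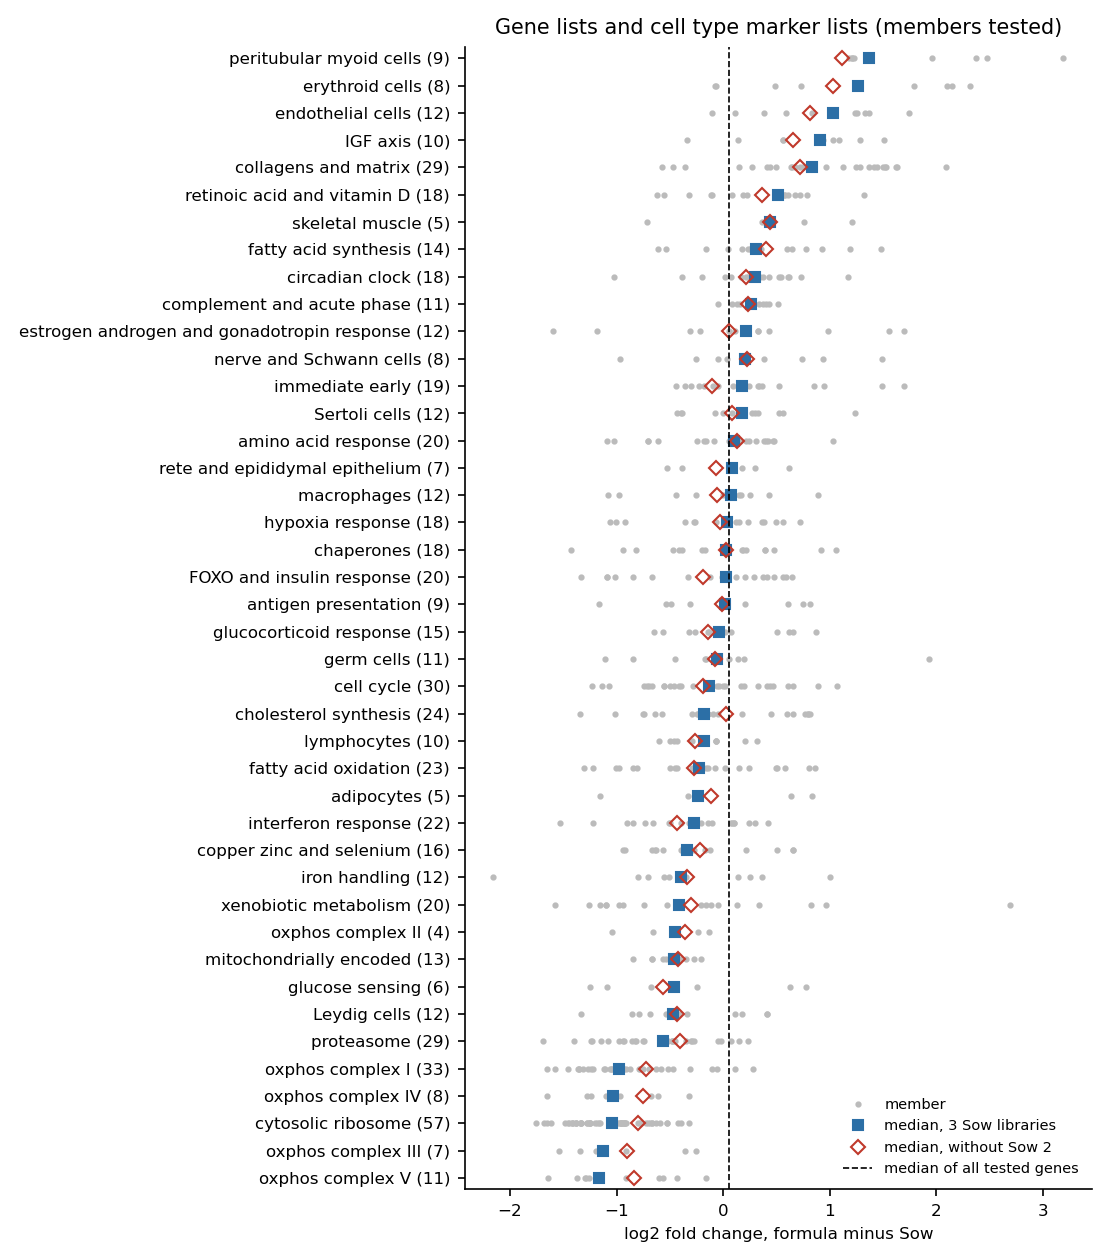
Log2 fold change (formula minus Sow) of the tested members of each list (grey), their median with all 3 Sow libraries (blue squares) and without Sow 2 (open red diamonds), beside the median of all tested genes (dashed). Complexes I, III, IV and V, ribosome and proteasome lie lowest, and myoid, erythroid, endothelial, IGF and matrix lists highest, with medians nearer to 0 without Sow 2 in each of these.

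In lipid metabolism, 3 of 23 genes of fatty acid oxidation were called lower (13.04%, beside 5.63% of all tested genes; median −0.22). They were ETFA, which carries electrons from acyl-CoA dehydrogenases (294, 532 and 272 CPM in Sow, 87.00 to 249 CPM (median 144) in formula, −1.30 ± 0.24, adjusted p = 0.00488), the fatty acid carrier FABP3 (−1.23 ± 0.26, adjusted p = 0.00611) and the dehydrogenase ACADM, which stood exactly at the limit (−1.001 ± 0.17, adjusted p = 0.00431) and lost its call without 6 of the other 14 libraries. Of 14 genes of fatty acid synthesis FADS3, of the desaturase family, was called higher (1.19 ± 0.42, adjusted p = 0.0394; lost without 6 of the other 14 libraries), with a list median of 0.31.

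Cholesterol synthesis showed how far single libraries mattered. The called members, 2 of 24 (8.33%), were HSD17B7 (−1.34 ± 0.29, adjusted p = 0.00629) and IDI1 (−1.01 ± 0.31, adjusted p = 0.0234; lost without 5 of the other 14 libraries). IDI1, an isomerase of isoprenoid synthesis, measured 753, 1967 and 839 CPM in Sow and 221 to 1209.5 CPM (median 618) in formula, so that Sow 2 was more than any formula library and the other Sow libraries lay among them. The list median was −0.18 with all 3 Sow libraries and 0.02 without Sow 2, a change of sign, and by diet it was −0.74 in M + E2 and −0.07, 0.04 and 0.13 in Milk, Soy and M + G.

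The lists with the highest medians were those of myoid cells (1.37), erythroid cells (1.26), endothelial cells (1.03), the IGF axis (0.91) and matrix (0.83). Of 12 endothelial markers 7 were called higher in formula and none lower, with a median of 1.03 (0.82 without Sow 2, none called). ROBO4, a guidance receptor of endothelium, measured 26.1, 21.6 and 35.1 CPM in Sow and 42.5 to 106 CPM (median 75.3) in formula (1.37 ± 0.23, adjusted p = 0.00420). CDH5, the cadherin of endothelial junctions, measured 52.9, 36.1 and 67.9 CPM and 76.1 to 197 CPM (median 135) (1.33 ± 0.28, adjusted p = 0.00591), and the vessel receptor TIE1 30.8, 20.9 and 34.7 CPM and 44.05 to 100.3 CPM (median 68.4) (1.24 ± 0.26, adjusted p = 0.00591). None of these overlapped between Sow and formula. The others called were the VEGF receptors KDR (1.02 ± 0.21) and FLT1 (1.05 ± 0.28), VWF (1.74 ± 0.48) and PLVAP (1.26 ± 0.36). Without Sow unnumbered the number called was 4, and KDR was just under 2-fold without any of 5 formula libraries, as FLT1 was without Milk 3 or Soy 3 (0.92, adjusted p = 0.00898). PECAM1 (0.59 ± 0.26), TEK (0.11 ± 0.22) and EMCN (−0.10 ± 0.24), also endothelial, were not called. Summed over the list, the level was 499, 441 and 621 CPM in Sow and 662 to 1643 CPM (median 977) in formula, so the groups were separate. In bulk tissue, fewer cells of a type and less RNA per cell cannot be told apart, and this holds for every marker list here.

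Peritubular myoid markers, which smooth muscle also expresses, had the highest list median, 1.37 (1.11 without Sow 2). Of 9 members 5 were called higher and the rest had positive values. MYH11, the smooth muscle myosin, measured 17.6, 7.74 and 35.7 CPM in Sow and 38.5 to 975 CPM (median 92.5) in formula (3.19 ± 0.99, adjusted p = 0.0231). The kinase MYLK measured 86.5, 71.6 and 123 CPM and 114 to 377 CPM (median 211) (1.23 ± 0.34, adjusted p = 0.0149), and the intermediate filament DES, also in the skeletal muscle list, 18.8, 15.5 and 21.3 CPM and 26.98 to 84.7 CPM (median 36.7) (1.21 ± 0.35, adjusted p = 0.0177). Each of MYH11, MYLK, DES and LMOD1 lost its call without Sow unnumbered, with adjusted p between 0.0604 and 0.0776, which left SMTN as the called member. The smooth muscle actins ACTA2 (1.37 ± 0.64, adjusted p = 0.103) and ACTG2 (2.47 ± 1.07, adjusted p = 0.0800) were not called.

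These values were uneven among the formula libraries. The summed level was 506, 411 and 860.4 CPM in Sow and 685 to 5052 CPM (median 1068) in formula, where Milk 2 (4034), Soy 3 (5052) and M + G 2 (3016) were far above the other 9, the highest of which was Milk 1 (1289.9). The same 3 libraries had the highest summed matrix genes. Without them, an alternative chosen after the values were seen, 2 of the myoid genes were called and the median was 0.86, and 4 endothelial genes were called with a median of 0.86. The ribosome then had 41 genes called lower, and over all genes 1550 were called, 510 higher and 1040 lower.

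Of 29 collagen and matrix genes, 8 were called higher in formula and none lower (median 0.83, and 0.72 without Sow 2). The genes called with the smallest p belong to basement membranes, the sheets beneath vessels and around the cords. COL18A1 measured 111, 60.2 and 125 CPM in Sow and 128 to 378 CPM (median 341) in formula without overlap (1.53 ± 0.31, adjusted p = 0.00563). The laminin chain LAMC1 measured 135, 94.2 and 161 CPM and 152 to 435 CPM (median 315) (1.25 ± 0.28, adjusted p = 0.00742). COL4A2 measured 388, 259 and 468 CPM and 413 to 1551 CPM (median 1103) (1.50 ± 0.37, adjusted p = 0.00985), and its partner COL4A1 had 1.37 ± 0.36 (adjusted p = 0.0125). In both LAMC1 and COL4A2 the highest Sow library, Sow 3, passed the lowest formula library. The remaining calls were COL5A1, COL6A1, BGN and elastin (ELN), each lost without Sow unnumbered, where their adjusted p ran from 0.0736 to 0.142. ELN lost its call without 6 of the other 14 libraries. The fibrillar collagens COL1A1 (1.63 ± 0.68, adjusted p = 0.0694) and COL3A1 (0.64 ± 0.36, adjusted p = 0.167) were not called, nor were the proteoglycans DCN (−0.58 ± 0.26) and LUM (−0.47 ± 0.20), which had values below 0.

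The IGF axis, which drives neonatal growth, had 3 of 10 tested members called higher in formula, none lower, and a median of 0.91 (0.65 without Sow 2). Its summed level was highest in Milk 2 (2914 CPM), Soy 3 (2641) and M + G 2 (2437), the libraries also highest in myoid markers. The next was M + E2 2 (2028). The lowest formula library had 1357 CPM and the highest Sow library 1298 CPM. The binding protein IGFBP5 measured 79.6, 51.7 and 121 CPM in Sow and 128 to 495 CPM (median 218) in formula (1.51 ± 0.42, adjusted p = 0.0151) and lost its call without Sow unnumbered (1.45, adjusted p = 0.0571). The receptor IGF1R measured 32.8, 18.1 and 32.6 CPM and 29.8 to 85.8 CPM (median 61.3) (1.09 ± 0.32, adjusted p = 0.0175; without Milk 3 0.93, adjusted p = 0.00819), with Sow 2 well below the other Sow libraries, which overlapped formula. IGFALS, the subunit that stabilizes circulating IGF, had 1.03 ± 0.32 (adjusted p = 0.0243) and lost its call without 5 of the other 14 libraries. The ligand IGF1 measured 4.04, 6.86 and 12.1 CPM and 8.53 to 60.1 CPM (median 13.03) and was not called (1.29 ± 0.59, adjusted p = 0.0979). IGFBP4, at 295, 303 and 331 CPM against 386 to 556 CPM (median 472), was separated without overlap but changed by less than 2-fold (0.56 ± 0.13, adjusted p = 0.00826).

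**Figure D5:**
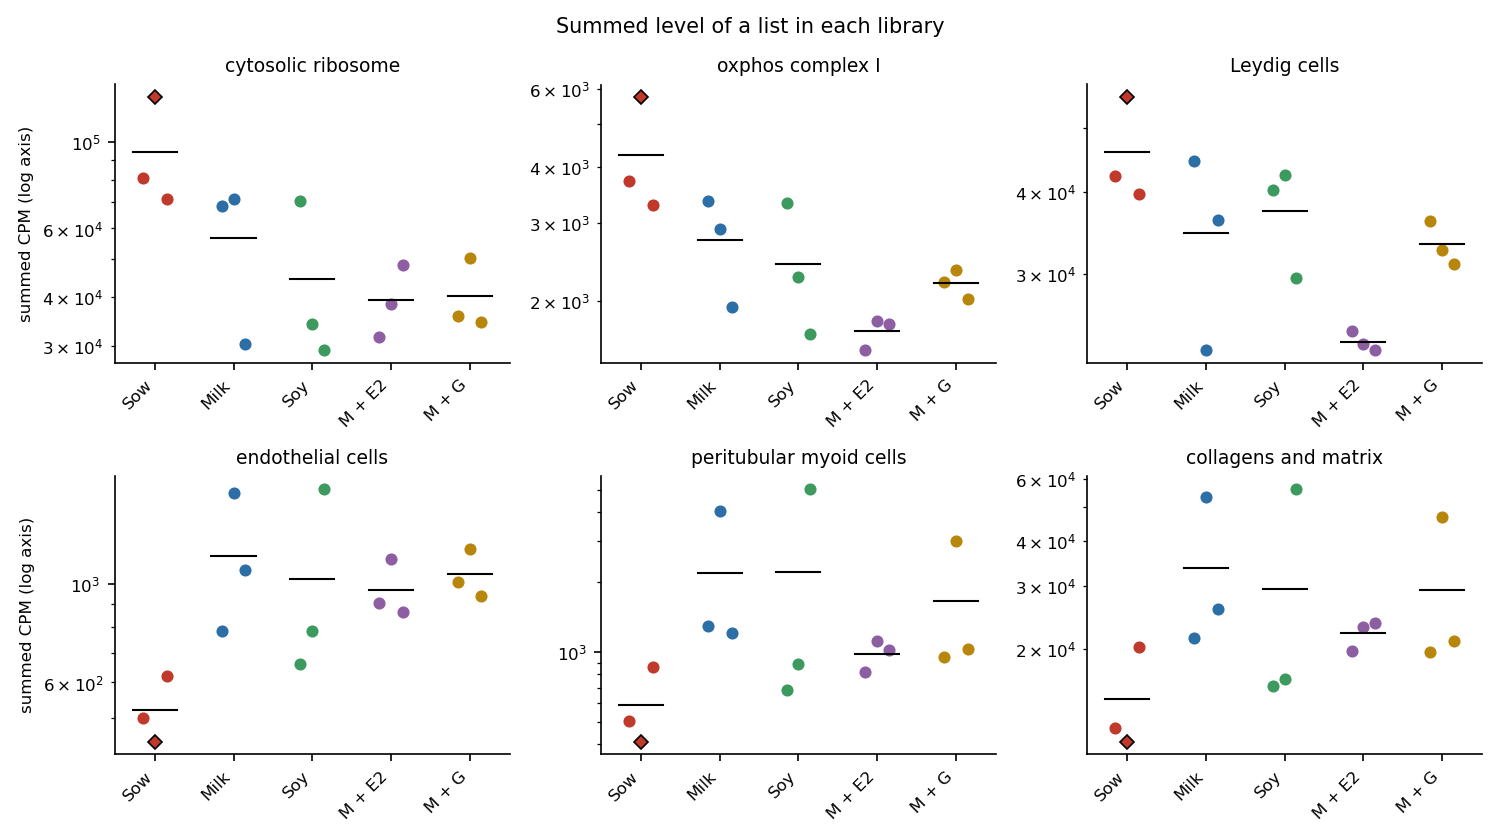
Summed CPM (log axis) of the tested members of 6 lists in each library of the 5 groups; lines are group means and the outlined diamond is Sow 2. Sow libraries are highest for ribosome and lowest for endothelial markers, Sow 2 is the extreme Sow library in every panel, and 1 library each of Milk, Soy and M + G stands far above the rest for myoid markers and matrix.

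Of 12 markers of Leydig cells, the main source of testicular steroids, 1 was called lower (8.33%, beside 5.63% of all tested genes). It was CYB5A, the cytochrome b5 that aids androgen synthesis, at 12281, 23992 and 10433 CPM in Sow and 3522 to 11605 CPM (median 5274) in formula (−1.33 ± 0.33, adjusted p = 0.00924; −0.92 ± 0.36, adjusted p = 0.132, without Sow 2). The list median was −0.47 (−0.43 without Sow 2), and its summed level was 42341, 55813 and 39746 CPM in Sow and 22917 to 44602 CPM (median 31853) in formula, with overlap. STAR, which brings cholesterol into the mitochondrion, had −0.34 ± 0.27 (adjusted p = 0.329), CYP11A1, which cuts its side chain, −0.54 ± 0.24 (adjusted p = 0.0823), CYP17A1, which leads to androgens, 0.18 ± 0.26 (adjusted p = 0.616) and aromatase CYP19A1 −0.52 ± 0.24 (adjusted p = 0.101). By diet the median of the list was −0.82 in M + E2 and −0.21 to −0.34 in the other formula groups.

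Sertoli and germ cell lists each had 1 called member. That is 8.33% called higher and 9.09% called lower, beside 4.5% and 5.63% of all tested genes. SOX8, a Sertoli cell factor, was the called member of 12 (2.29, 1.31 and 1.44 CPM in Sow, 1.58 to 7.67 CPM (median 3.80) in formula, 1.23 ± 0.40, adjusted p = 0.0275), and it lost its call without Sow 3 (1.13, adjusted p = 0.0898). The median of the Sertoli cell list was 0.18, with 0.53 in M + E2, 0.29 in M + G, −0.09 in Milk and −0.10 in Soy, differences that were not tested. Of 11 germ cell genes MAEL, which guards against transposons, was called lower, with 16.1, 15.9 and 7.43 CPM in Sow and 2.96 to 11.08 CPM (median 5.77) in formula (−1.11 ± 0.29, adjusted p = 0.0113; without Sow unnumbered −0.97, adjusted p = 0.0560). DDX4, the marker of all germ cells, had −0.85 ± 0.29 (adjusted p = 0.0332), below 2-fold, and the median of the germ cell list was −0.06, with 0.38 in M + E2 and −0.32, −0.30 and −0.27 in Milk, Soy and M + G.

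Several transcripts of the red cell lineage were higher in formula at low levels. Of 8 tested genes 4 were called, none was called lower, and the median was 1.26 (1.03 without Sow 2). Called genes included GATA1, the master factor of the lineage (0.269, 0.146 and 0.240 CPM in Sow, 0.623 to 2.43 CPM (median 1.04) in formula, adjusted p = 0.00561), AHSP, which stabilizes α-globin (0.538, 1.17 and 0.719 CPM in Sow, 1.12 to 6.06 CPM (median 3.88) in formula, 2.15 ± 0.53) and the anion exchanger SLC4A1 (adjusted p = 0.0375). GATA1 and SLC4A1 had at most 3 reads in any Sow library, so no fold is given for them, and SLC4A1 lost its call without 5 of the other 14 libraries. The more abundant red cell transcripts overlapped between Sow and formula, as HBB measured 517, 558 and 476 CPM in Sow and 231 to 1465 CPM (median 705) in formula (0.48 ± 0.40, adjusted p = 0.353) and ALAS2 14.8, 17.1 and 19.3 CPM and 6.50 to 34.4 CPM (median 14.8).

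Shares called lower in the immune lists were 8.33% for macrophages, 11.11% for antigen presentation and 9.09% for interferon response, each a call or a pair of calls, beside 5.63% of all tested genes. Of 12 macrophage markers AIF1 was called lower (−1.08 ± 0.30, adjusted p = 0.0145), with a median of 0.08, and none of 10 lymphocyte markers was called (median −0.18; CD2 −0.50 ± 0.28, adjusted p = 0.173). B2M, the light chain of MHC class I, was called lower among 9 genes of antigen presentation (median 0.02), at 1312, 1928 and 1682 CPM in Sow and 402 to 2098 CPM (median 530.4) in formula (−1.17 ± 0.38, adjusted p = 0.0277), and lost its call without Sow 3 (−1.15, adjusted p = 0.0673). Of 22 interferon-stimulated genes 2 were called lower, RSAD2 (−1.22 ± 0.45, adjusted p = 0.0456) and OAS1 (−1.53 ± 0.57, adjusted p = 0.0478), with a median of −0.28. Their Sow libraries were spread widely, with 3.63, 2.77 and 7.91 CPM for RSAD2 and 8.61, 4.23 and 1.08 CPM for OAS1. Both calls were lost without most other libraries (9 of 14 and 11 of 14). None of 11 complement and acute phase genes was called (median 0.27; SERPING1 0.40 ± 0.28, adjusted p = 0.261; ITIH4 0.51 ± 0.36, adjusted p = 0.275).

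Hormone-responsive genes were called in both directions, 8.33% higher and 16.67% lower, beside 4.5% and 5.63% of all tested genes. Of 12 genes listed for estrogen, androgen and gonadotropin response, the oxytocin receptor OXTR was called higher, at 1.75, 1.17 and 0.719 CPM in Sow and 2.37 to 8.16 CPM (median 3.64) in formula (1.70 ± 0.38, adjusted p = 0.00700). NR0B1, a nuclear receptor that represses steroid synthesis, was called lower, at 12.5, 19.3 and 15.5 CPM and 3.42 to 9.90 CPM (median 7.09) (−1.18 ± 0.25, adjusted p = 0.00609). Neither overlapped between Sow and formula. Lactoferrin (LTF) was called lower (−1.60 ± 0.56, adjusted p = 0.0380) with overlap, lost its call without 5 of the other 14 libraries, and the list median was 0.22. None of 15 glucocorticoid-responsive genes was called (median −0.04), CEBPD (−0.57 ± 0.16, adjusted p = 0.0139) and HSD11B2 (0.65 ± 0.18, adjusted p = 0.0157) having the smallest p. Among 18 genes of retinoic acid and vitamin D, the receptor RARG was called higher, at 9.28, 5.70 and 8.87 CPM in Sow and 12.7 to 36.01 CPM (median 16.7) in formula (1.32 ± 0.34, adjusted p = 0.0117), with a median of 0.51 (0.37 without Sow 2).

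Clock, growth and stress lists were mixed. Shares called higher and lower were 5.56% and 5.56% for clock genes and 3.33% and 10% for cell cycle genes. Over all tested genes they were 4.5% and 5.63%. Of 18 clock genes PER2 was called higher (4.57, 5.55 and 6.71 CPM in Sow, 5.62 to 17.5 CPM (median 13.8) in formula, 1.17 ± 0.28, adjusted p = 0.00829) and NR1D2 lower (109.6, 145 and 91.9 CPM and 40.2 to 75.7 CPM (median 56.01), −1.03 ± 0.20, adjusted p = 0.00547; under 2-fold without 4 of the formula libraries), with a median of 0.30. The hour at which tissue was taken is not given per animal in the sources used here. Of 30 cell cycle genes CCND1, the G1 cyclin, was called higher (1.07 ± 0.27, adjusted p = 0.0107; lost without 4 of the other 14 libraries), while NUF2, CDK1 and PCNA were called lower. CDK1, the mitotic kinase, measured 60.7, 101 and 51.04 CPM in Sow and 15.8 to 61.4 CPM (median 28.6) in formula (−1.23 ± 0.28, adjusted p = 0.00714), the kinetochore protein NUF2 had −1.14 ± 0.24 and the replication clamp PCNA −1.08 ± 0.24 (without M + E2 1 −0.98, adjusted p = 0.0156), beside a median of −0.13.

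Shares called lower were 10% for the amino acid response and 11.11% for hypoxia genes, beside 5.63% of all tested genes. Among 20 genes of the amino acid response the serine synthesis enzymes PSAT1 (358, 670.3 and 391 CPM in Sow, 164 to 315 CPM (median 213) in formula, −1.09 ± 0.20, adjusted p = 0.00496) and PSPH (−1.03 ± 0.23, adjusted p = 0.00709; under 2-fold without 4 of the formula libraries) were called lower, with a median of 0.11. LDHA (−1.06 ± 0.31, adjusted p = 0.0176) and ANKRD37 (−1.01 ± 0.31, adjusted p = 0.0229) were the called members of 18 hypoxia genes, both lower and both lost without Sow unnumbered (−0.98, adjusted p = 0.0679 and −0.94, adjusted p = 0.0813), 4 and 6 of the other 14 libraries ending the call in all, and the list median was 0.03. None of 19 immediate early genes was called (median 0.18; EGR1 0.94 ± 0.27, adjusted p = 0.0167; JUNB −0.44 ± 0.15, adjusted p = 0.0355), nor any of 16 genes of copper, zinc and selenium (median −0.34; SLC30A1 −0.64 ± 0.15, adjusted p = 0.00886; MSRB1 −0.63 ± 0.18, adjusted p = 0.0185).

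Markers of cells outside the parenchyma were checked for tissue carried along. LPL, a lipase of adipocytes that macrophages also make, was the called member of 5 adipocyte genes and was lower in formula, at 21.1, 38.8 and 23.4 CPM in Sow and 8.99 to 17.4 CPM (median 11.6) in formula (−1.16 ± 0.21, adjusted p = 0.00465), with a median of −0.23. SOX10 was the called member of 8 nerve and Schwann cell genes, higher in formula at low level (0.673, 0.584 and 1.08 CPM in Sow, 1.21 to 3.58 CPM (median 2.20) in formula, 1.49 ± 0.36, adjusted p = 0.00864), with a median of 0.21. Among 5 skeletal muscle genes DES alone was called (median 0.44), and none of 7 genes of rete and epididymal epithelium (median 0.08; CLDN4 −0.52 ± 0.22, adjusted p = 0.0691; KRT8 −0.39 ± 0.30, adjusted p = 0.322). Of these 7 epithelial genes 5 had values above 0. The median of this list was uneven by diet, at 1.65 for M + G against −0.65 for Milk, −0.35 for M + E2 and −0.21 for Soy, differences that were not tested. The summed level of the last list was 203, 213 and 176 CPM in Sow and 60.5 to 395 CPM (median 153) in formula. The highest library was M + G 2, beside 147.5 CPM for M + G 1 and 111.7 CPM for M + G 3. The part of such tissue in the results above was not tested.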

How the data were processed

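Testis RNA of male piglets was sequenced as short single-end reads in 15 libraries. After quality trimming, the authors used the CLC Genomics Workbench to map them to a curated porcine gene library and the remainder to Ensembl's pig genome (11.1), and deposited raw counts per gene without normalization; which mapping step the counts come from is not given in the sources used here, and neither is whether strand was used. Totals were 6097552 to 9488579 reads per library (median 8198038). A count of 0 allows up to 3 reads, by counting error only. Groups came from the sample labels and column names; in Sow and Soy 1 column carries no number. The sources used here do not say outright that each library is a separate animal, so p-values measure the spread between these samples, which may be technical.

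The tools were edgeR 4.0.16 for the tests reported, and DESeq2 1.42.0 and limma 3.58.1 for alternatives, run under R 4.3.3. Genes were kept by filterByExpr (minimum count 10), scaled by TMM and fitted in 1 quasi-likelihood model of 5 groups. The contrast was the mean of the formula coefficients (weight 0.25 each) minus Sow, and the test among formula groups had 3 degrees of freedom. Adjusted p-values are Benjamini-Hochberg over all tested genes. Genes without a table symbol took one from the reference for 798 identifiers. Positions are from RefSeq on Sscrofa11.1 by symbol (79.8% of tested genes). The scripts were tested on simulated data.

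The comparison and the 30 pathway and 12 cell type lists were chosen with earlier results of these data known. Genes were named by rule: with a symbol, called in both fits and without overlap, the 14 with the smallest p in each direction, filled from genes called with all 3 Sow libraries; in each list up to 3 called members per direction, or the 2 with the smallest p where none was called; and PHYHIPL, TXNIP and ENSSSCG00000048477. CYP3A29 and ENSSSCG00000018071 were added because they too were called without Sow 2, and further list members were named after their values were seen. Some genes that the rule names are not reported here. Promoter motifs were planned, and promoter sequences were not used here.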

Additional observations from a re-analysis of the deposited data

Results flagged for a closer look

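A test of the difference among the formula groups singled out 1 named gene, ENSSSCG00000018071 (adjusted p = 0.0103, edgeR's quasi-likelihood test over all tested genes). Its difference from Sow was −0.41 on the log2 scale in Soy, against −2.34 in Milk, −3.29 in M + E2 and −3.09 in M + G. All 3 Soy libraries (16.96, 9.65 and 9.23 CPM) lay above the other 9 formula libraries, of which the highest had 4.14 CPM. Groups of 3 and of 12 were not screened for single samples far from the rest.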

How the results depend on the processing

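Leaving out 1 library gave from 11 calls (without Sow 2) to 2224 (without Sow 3), from 3 to 974 higher and from 8 to 1263 lower; without any library but Sow 2 the total stayed at 1321 to 2224. Calls, with those higher and lower in brackets, were 1536 (740 and 796) with the formula libraries as 1 group, 1585 (619 and 966) with DESeq2 size factors, 1871 (1494 and 377) with total reads, 1766 (587 and 1179) without a filter, 1231 (470 and 761) with 10 reads required in every library, 1669 (696 and 973) with DESeq2's Wald test, 1502 (632 and 870) with limma voom, 1601 (795 and 806) with the exact test and 5810 (2671 and 3139) by adjusted p alone.

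Alternatives added after seeing the data, without Sow 2, gave 9 (0 and 9) with 1 formula group, 404 (208 and 196) with DESeq2, 14 (4 and 10) with limma voom, 312 (124 and 188) with the exact test, 11 (3 and 8) by adjusted p alone, 6 (0 and 6) with M + E2 out of the mean and 119 (32 and 87) without Milk 2, Soy 3 and M + G 2, where fewer samples entered; the cause of the differences was not tested.

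Calls among the formula groups ran from 1 to 15 when 1 library was left out, and were 4 with total reads, 22 without a filter, 1 with 10 reads in every library, 5 with limma voom (3 without Sow 2), 3 by adjusted p alone without Sow 2, 0 without the 3 smooth muscle-rich libraries (1475 genes at an unadjusted p below 0.05), 0 without Sow 2 as well (1701) and 225 with DESeq2's likelihood ratio test, run in place of the Wald test.

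The replicate block was fitted on the 13 libraries with a number, giving 2367 (941 and 1426) calls against 2156 (752 and 1404) without the block term, and 0 and 0 among formulas (1585 and 1294 at an unadjusted p below 0.05). Deviations of Sow and formula libraries with the same number correlated at −0.18 to 0.50, and those of Milk and M + G at 0.23 to 0.51. These ranges overlap and each value comes from a single pair of libraries. Whether libraries of the same number share more than the number was not tested. The pseudo-F of the libraries ran from 2.41 (without Sow 2, 16.7% of the sum of squares) to 5.55 (prior count of 5), and its p was at the floor of the exact permutation test throughout, which says nothing about stability. Of 6142 recomputed log2 values of 162 named genes or called list members, 4722 kept their call, 1420 lost it and none changed sign.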
